A study of Mus musculus with 8 samples.

Results

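The 10 genes described here encode the subunits of the transcription factor NF-κB and the proteins that hold it back. They were taken by name from the deposited gene table: *Rel*, *Rela*, *Relb*, *Nfkb1* and *Nfkb2* for the subunits, and *Nfkbia*, *Nfkbib*, *Nfkbie*, *Nfkbiz* and *Tnfaip3* for the inhibitors and regulators. All 10 were among the 11911 genes listed and among the 11317 genes with enough counts to be tested. The libraries came from naïve splenic CD4+ T cells cultured for 36 hours with TGF-β, antibodies to CD3 and CD28, and antibodies that block IL-4 and IFN-γ, which turns naïve cells toward induced regulatory T cells (iTregs). Of the 8 libraries, 4 were from Foxp3YFP-Cre mice and are labelled WT (WT1 to WT4), and 4 were from Tdrd3fl/fl/Foxp3YFP-Cre mice and are labelled knockout (KO1 to KO4). Both groups carry the Foxp3YFP-Cre allele, all mice were bred into C57BL/6J, and no age was stated for the mice of the RNA-seq. Cre is driven from the *Foxp3* locus, so floxed *Tdrd3*, which encodes a Tudor domain coregulator of transcription, is deleted only after a cell has begun to transcribe *Foxp3*. RNA was taken from harvested CD4+ cells, and no sort of YFP+ cells before RNA was stated, so cells that never expressed *Foxp3* can be present in both groups.

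Values are given as normalized CPM, CPM being a library's counts scaled to the same total over the tested genes. The counts of the listed genes summed to between 13258277 and 16001720 per library, and the totals of the genotypes gave p = 0.743 (exact permutation of the log2 totals, two-sided). A count of 3, taken as the least a library can show, corresponds to 0.188 to 0.225 CPM, far below every value of the 10 genes. *Tdrd3* had 18.8, 15.1, 9.95 and 17.7 CPM in WT1 to WT4 and 13.7, 10.7, 12.9 and 11.1 CPM in KO1 to KO4. The library labelled WT3 thus had less *Tdrd3* RNA than every library labelled KO, and every direction between genotypes below is between libraries as they are labelled. The means ran as the labels say, at 15.4 ± 3.95 CPM in WT and 12.1 ± 1.43 CPM in KO libraries (SD, n = 4 each; log2 fold change −0.35, edgeR, unadjusted P = 0.0370, adjusted p = 0.496). The counts were summed over each whole gene, so the loss of the floxed exons could not be read from them. On the 500 most variable genes, KO1 and KO4 clustered apart from the other 6 libraries. Over all genes WT4 joined them, and the 3 stood apart from the other 5. Values without KO1 and KO4, which were added after the data were seen, are given beside many of the results that moved with them.

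The labelled cell type was checked against its markers. All 7 T cell markers were present, with *Cd4* at 633 ± 13.5 CPM in WT and 606 ± 19.7 CPM in KO libraries (SD, n = 4 each). The B cell gene *Ms4a1* was not listed, and *Cd79b*, another B cell gene, had between 0.871 and 2.03 CPM. Of 5 myeloid and dendritic cell markers only *Lyz2* was listed, with 9 counts in KO1, 18 counts in KO4 and 0 in the other libraries after rounding, while *Itgam*, *Csf1r*, *Itgax* and *Fcer1g* were not listed. *Cd8a*, a marker of CD8 T cells, had 11.3 CPM in WT3 and between 0.436 and 1.37 CPM in the other libraries. *Cd8b1*, the other marker of these cells, had between 6.66 and 10.5 CPM in WT and between 5.64 and 7.20 CPM in KO libraries (log2 fold change −0.36, edgeR, unadjusted P = 0.0391, adjusted p = 0.499). The part of CD8 T cells in the results was not tested.

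NF-κB is a family of dimers built from c-Rel (*Rel*), p65 (*Rela*), RelB (*Relb*) and the products of *Nfkb1* and *Nfkb2*, which are made as the precursors p105 and p100 and trimmed to the DNA-binding p50 and p52. In resting cells IκB proteins hold the dimers in the cytoplasm, and the T cell receptor with CD28 frees them by having the IκBs degraded, after which several inhibitor genes are themselves transcribed by NF-κB as feedback. In T cells c-Rel is known for opening an enhancer within *Foxp3*, the gene that defines regulatory T cells, so the question put to the table was whether any difference in *Rel* was shared by its partners and inhibitors.

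NF-κB binds kappaB sites, and its family genes are known to carry such sites near their starts. A consensus kappaB decamer was searched on both strands in the 250 bases before each gene start given in the table, in the genome of the same build, GRCm39. Of the 10 genes, 4 held a match (*Rel*, *Relb*, *Nfkbia* and *Nfkbie*), against 981 of all 11317 tested genes, or 8.67%. The windows of 30 bases around the matches are shown on the strand of each gene, since NF-κB dimers recognise DNA through such letters, and capitals mark the match. *Rel* holds 2 matches that overlap, of which 1 reads as the decamer on both strands and the other only on the strand opposite to the gene, so its capitals cover both.
Rel, chr11:23721042-23721071, minus strand: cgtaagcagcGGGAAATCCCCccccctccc
Relb, far match, chr7:19363441-19363470, minus strand: gtgagcagcgGGGGTTTTCCcattcccttt
Relb, near match, chr7:19363368-19363397, minus strand: cggcggcgccGGGGAATTCCgccgccccgc
Nfkbia, chr12:55539442-55539471, minus strand: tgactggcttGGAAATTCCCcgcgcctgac
Nfkbie, chr17:45866510-45866539, plus strand: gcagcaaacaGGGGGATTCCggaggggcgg
The matches begin 91 bases before the start of *Rel*, 97 and 24 before that of *Relb*, 29 before that of *Nfkbia* and 109 before that of *Nfkbie*. The GENCODE annotation (mouse release M39) places the start of *Rel* further upstream than the deposited table does, so that its match lies inside the gene there. The near match of *Relb* likewise lies past the start that GENCODE gives, inside the gene. For *Nfkb1*, on the minus strand, GENCODE places the start at 135397742 and the deposited table at 135397308. The 250 bases searched for *Nfkb1* thus lay wholly inside the gene as GENCODE gives it. Its lack of a match therefore says nothing about the bases before its GENCODE start, which were not searched. A match is a run of letters and not a measured site, and these data hold no measurement of binding.

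The family was unevenly transcribed. Per kilobase of the canonical transcript, *Nfkb1* stood highest at 249.9 CPM per kb over the 8 libraries, followed by *Nfkbia* at 109, *Nfkb2* at 51.3, *Rel* at 51.0, *Nfkbib* at 42.3 and *Rela* at 37.0. *Nfkbie* (20.1), *Relb* (17.0), *Tnfaip3* (15.3) and *Nfkbiz* (10.5 CPM per kb) were the lowest. The levels of *Nfkb2* and *Rel* cannot be ordered, since *Rel* alone ranged from 42.7 to 58.1 CPM per kb, and dividing by the length of all annotated exons instead put *Rel* (51.0) above *Nfkb2* (43.9 CPM per kb). That length lowered *Nfkb1* to 91.5 CPM per kb (82.7 to 102 over the libraries) and *Nfkbia* to 89.0 (85.3 to 97.3), so that the order of these genes is not settled on it. The same length put *Rela* (30.7) above *Nfkbib* (24.5 CPM per kb). In libraries labelled WT, c-Rel transcripts were more abundant per length than those of p65, at 54.9 ± 3.50 against 36.6 ± 1.26 CPM per kb (SD, n = 4).

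**Figure D1:**
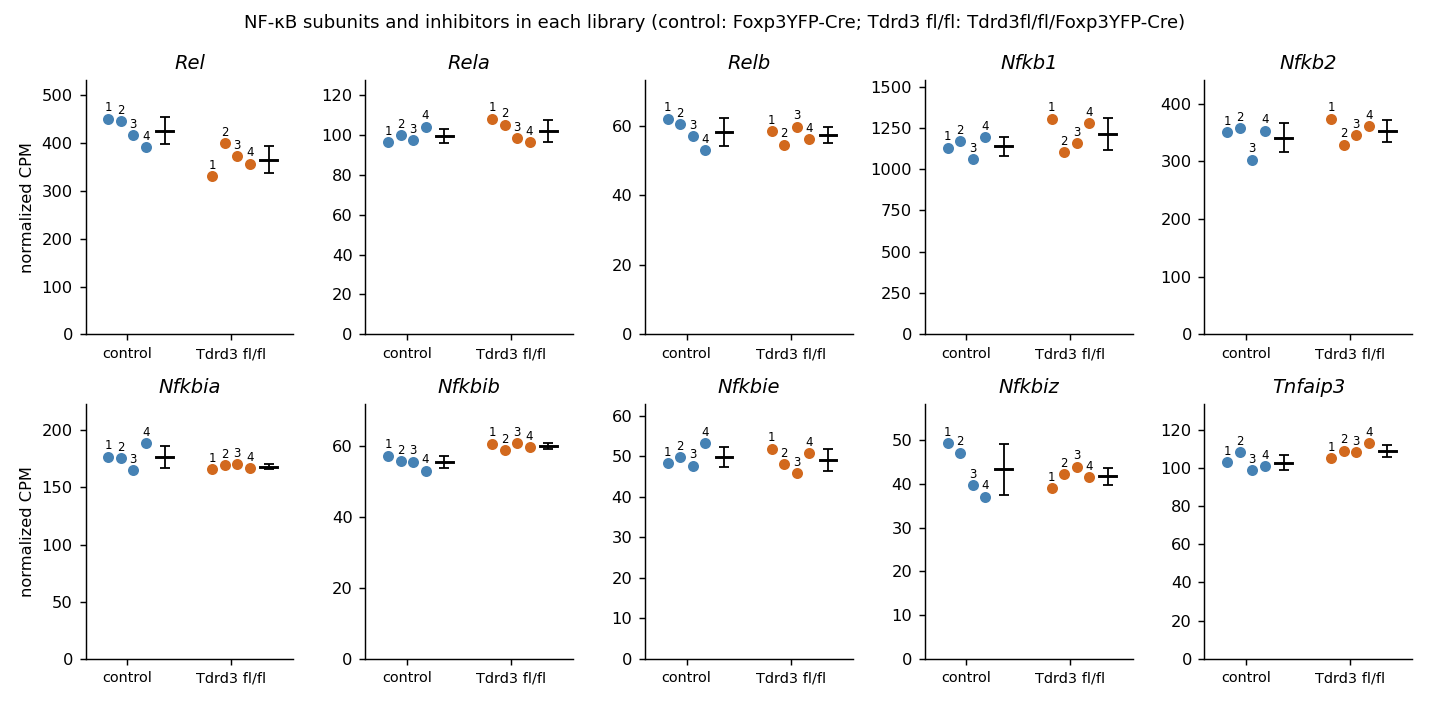
Normalized CPM of each of the 10 genes in the 8 libraries, with replicate numbers above the points and the mean ± SD (n = 4) to the right of each group; each vertical axis starts at 0 and has its own scale. *Rel* lay between 331 and 399 CPM in Tdrd3fl/fl/Foxp3YFP-Cre libraries against 392 to 451 CPM in controls, while most of the others overlapped widely.

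*Rel* (ENSMUSG00000020275), on the minus strand of chromosome 11 from 23686847 to 23720970, was lower in libraries labelled KO. It had 451, 445, 416 and 392 CPM in WT1 to WT4 and 331, 399, 372 and 357 CPM in KO1 to KO4. The KO libraries sat below the WT libraries except that KO2 lay above WT4, so the genotypes overlapped by 1 pair of libraries. The mean was 426 ± 27.2 CPM in WT and 365 ± 28.3 CPM in KO libraries (SD, n = 4 each), a ratio of 0.856. On the log2 scale the fitted difference was −0.22 (SE 0.0534, 95% interval from −0.34 to −0.11). In edgeR's quasi-likelihood test the unadjusted P was 0.000471, rank 64 of all tested genes, and the adjusted p of 0.0834 (Benjamini-Hochberg over all tested genes) missed 0.05. The two-sided exact permutation test on the 8 values gave p = 0.0571, where 0.0286 is the smallest that 4 against 4 allow. In RNA from whole cultures, fewer cells that transcribe a gene and less RNA per cell cannot be told apart.

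The difference in *Rel* kept its direction across alternative analyses, and its size and call moved with single libraries. It was negative in all 17 alternatives, from −0.27 to −0.15 on the log2 scale, and the adjusted p was under 0.05 in 6 of them and ranged from 0.00931 to 1.0 over the 17. Leaving out KO2, the highest KO library, gave −0.27 (edgeR, adjusted p = 0.00931), and leaving out WT4, the lowest WT library and the one that joined KO1 and KO4 over all genes, gave −0.26 (adjusted p = 0.0171). Leaving out KO1 gave −0.18 (adjusted p = 0.401). Without KO1 and KO4 together it was −0.15 (unadjusted P = 0.0272, adjusted p = 1.0), an alternative added after the data were seen. Those libraries were the lowest in *Rel* and the ones with *Lyz2* counts. The naive CD4+ T cells had been isolated from spleen by negative selection, a step meant to remove other cell types, and the part of *Lyz2*-expressing cells in the result was not tested. Leaving out WT3, the library with little *Tdrd3* RNA and the most *Cd8a*, gave −0.24 (adjusted p = 0.115).

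None of the other 4 subunit genes had an unadjusted P under 0.05. *Nfkb1*, the source of p105 and p50 and the partner gene of c-Rel in the dimers of T cells, had 1131, 1169.8, 1062 and 1195 CPM in WT1 to WT4 and 1306, 1101, 1159 and 1280.3 CPM in KO1 to KO4. KO1 and KO4 were the highest of the 8 libraries in *Nfkb1* and the lowest in *Rel*. The log2 fold change of *Nfkb1* was 0.09 (SE 0.0501; edgeR, unadjusted P = 0.0940, adjusted p = 0.652). Without KO1 and KO4 it was −0.01, and with 1 library left out it ranged from 0.05 to 0.13, with an unadjusted P of 0.0132 without KO2 and 0.0443 without WT4 (adjusted p = 0.259 and 0.439).

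*Rela*, which encodes the activating subunit p65, had 96.4, 99.6, 97.4 and 104 CPM in WT1 to WT4 and 108, 105, 98.1 and 96.2 CPM in KO1 to KO4. Both groups covered nearly the same range, and the log2 fold change was 0.04, with a 95% interval from −0.07 to 0.14 (edgeR, adjusted p = 0.901). *Relb*, the subunit of the alternative arm, had between 53.0 and 62.0 CPM in WT and between 54.5 and 59.7 CPM in KO libraries, with a log2 fold change of −0.02 (adjusted p = 0.949). *Nfkb2*, which encodes p100 and p52, the partner of RelB, had 350.4, 358, 303 and 353 CPM in WT1 to WT4 and 374, 329, 346 and 361 CPM in KO1 to KO4. Its groups overlapped, with WT3 the lowest library, and the log2 fold change was 0.05 (edgeR, adjusted p = 0.863). In GENCODE release M39 the exons of *Nfkb2* run past the end given in the deposited table and overlap *Psd* on the opposite strand. Neither the exons used for the counting nor its strand setting was stated, so whether reads of *Psd* entered was not tested.

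Because these subunits pair with each other, the make-up of the family was also given as shares of the summed CPM per kb of canonical transcript of the 5 subunit genes. *Rel* made up 14.4, 13.9, 14.2 and 12.3% of it in WT1 to WT4 and 9.9, 13.2, 12.0 and 10.8% in KO1 to KO4. The mean share of *Rel* was 13.7 ± 0.947% in WT and 11.5 ± 1.45% in KO libraries (SD, n = 4), and that of *Nfkb1* was 60.3 ± 1.03% and 62.6 ± 1.97%. By library, *Nfkb1* made up 59.5, 60.1, 59.9 and 61.8% in WT1 to WT4 and 64.1, 60.2, 61.7 and 64.3% in KO1 to KO4. Its share in KO2 and KO3 lay within the WT range. KO1 and KO4 had its highest shares and the lowest shares of *Rel*. These sizes depend on the length used: per kilobase of all annotated exons, an alternative added after the data were seen, the mean share of *Rel* was 24.0 ± 1.43% in WT and 20.6 ± 2.20% in KO libraries, and that of *Nfkb1* was 38.8 ± 1.07% and 41.3 ± 2.13%. The shares of *Rela* (means 9.1 and 9.1%), *Relb* (4.3 and 4.1%) and *Nfkb2* (12.6 and 12.7%) differed less than the spread between libraries. These are shares of RNA, not of protein or of dimers.

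None of the 5 genes of inhibitors and regulators had an unadjusted P under 0.05 in the lower direction. *Nfkbia*, which encodes IκBα, the fast feedback inhibitor that NF-κB itself induces, had 177, 176, 165 and 189 CPM in WT1 to WT4 and 166, 169.6, 170.3 and 167 CPM in KO1 to KO4. The KO libraries were tightly grouped within the range of the WT libraries (SD 2.14 against 9.50 CPM), and the log2 fold change was −0.07 (SE 0.0442; edgeR, unadjusted P = 0.120, adjusted p = 0.699). Leaving out WT3, the lowest WT library, gave −0.10 with every KO library below the remaining WT libraries (edgeR, unadjusted P = 0.0272, adjusted p = 0.432; exact permutation p = 0.0286, two-sided), and leaving out WT4, the highest, gave −0.04 (adjusted p = 0.817). *Nfkbie*, which encodes IκBε, had between 47.7 and 53.3 CPM in WT and between 45.8 and 51.9 CPM in KO libraries, with a log2 fold change of −0.02 (adjusted p = 0.956), or −0.08 without KO1 and KO4 (unadjusted P = 0.291).

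*Nfkbib*, which encodes IκBβ, was the only one of the 10 genes whose genotypes did not overlap. It had 57.4, 55.9, 55.7 and 53.2 CPM in WT1 to WT4 and 60.8, 59.0, 61.0 and 59.8 CPM in KO1 to KO4, so every library labelled KO was above every library labelled WT. The mean was 55.6 ± 1.76 CPM in WT and 60.1 ± 0.916 CPM in KO libraries (SD, n = 4), and the two-sided exact permutation test gave p = 0.0286, the smallest possible. In edgeR the log2 fold change was 0.11 (SE 0.0538, unadjusted P = 0.0473, adjusted p = 0.530). The unadjusted P was 0.0629 with DESeq2 on the genes edgeR kept, and with any single library left out it was above 0.05 except without WT1 (0.0424). Its exons overlap those of *Sirt2* and *Ccer2* on the opposite strand, from which its reads cannot be told apart without the strand.

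*Nfkbiz*, which encodes the nuclear cofactor IκBζ, had 49.4, 47.2, 39.7 and 37.1 CPM in WT1 to WT4 and 39.1, 42.2, 44 and 41.6 CPM in KO1 to KO4. The KO libraries lay within the range of the WT libraries, and the log2 fold change was −0.06 (edgeR, adjusted p = 0.903). *Tnfaip3*, which encodes the ubiquitin-editing inhibitor A20, had 103, 108, 98.8 and 101 CPM in WT1 to WT4 and 105, 109, 108 and 113 CPM in KO1 to KO4. It was slightly higher in libraries labelled KO, with a log2 fold change of 0.08 (SE 0.0465; edgeR, adjusted p = 0.659). WT2 lay level with the KO libraries (exact permutation p = 0.0857). Leaving out WT2 gave 0.11, with every KO library above the remaining WT libraries. There the unadjusted P in edgeR was 0.0447 (adjusted p = 0.586), and the two-sided exact permutation p was 0.0286. With 1 library left out in turn, the log2 fold change ranged from 0.06 to 0.11.

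**Figure D2:**
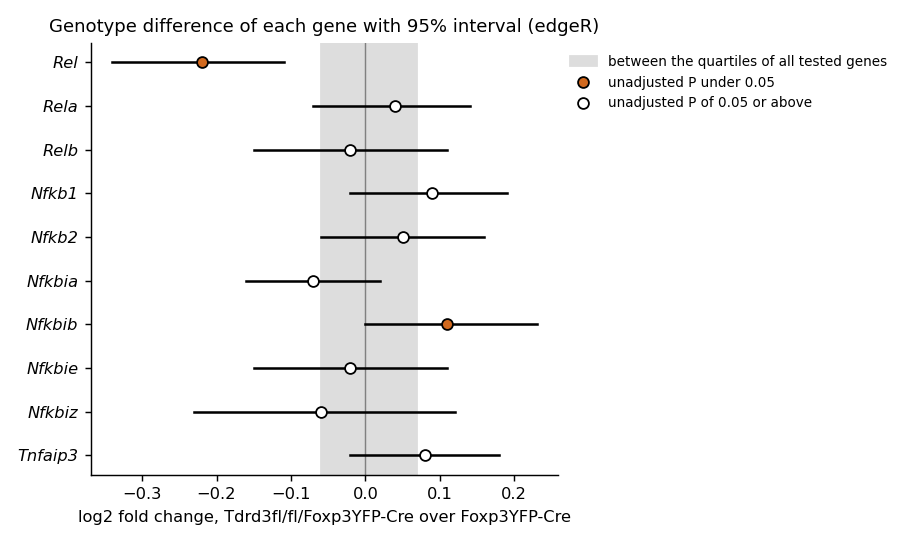
Log2 fold change of each gene, Tdrd3fl/fl/Foxp3YFP-Cre over Foxp3YFP-Cre, from edgeR with its 95% interval; the grey band spans the range between the quartiles of all tested genes, from −0.06 to 0.07, and filled points have an unadjusted P under 0.05. *Rel* stands alone to the left at −0.22, and the other 9 genes lie between −0.07 and 0.11.

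Counted over the set, 5 of the 10 genes were lower and 5 higher, with a median log2 fold change of 0.01, beside a median of 0.001 over all tested genes, of which 49.4% were lower. None of the 10 had an adjusted p under 0.05 in edgeR, against 30 of all 11317 tested genes, or 0.265%, while DESeq2 on the genes edgeR kept called 1, *Rel* (log2 fold change −0.23, adjusted p = 0.0166), as did limma voom (−0.26, adjusted p = 0.0200). Those tools called 81 (0.716%) and 95 (0.839%) of all tested genes. At an unadjusted P under 0.05, 1 gene was lower (*Rel*), beside 4.91% of all tested genes, and 1 was higher (*Nfkbib*), beside 4.38%. The genotypes did not overlap for 0 genes in the lower direction, beside 2.63% of all tested genes, and for 1 gene in the higher direction, beside 2.25%. With so few genes, these counts are not a result about the set.

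Whether *Rel* differed between genotypes by more than its relatives did was tested directly, by its log2 ratio to each other gene in the same library, in which the scaling between libraries cancels. All 9 ratios were lower in libraries labelled KO, by −0.16 to −0.34 on the log2 scale. Since all 9 share the values of *Rel*, they are not independent of each other. Without KO1 and KO4 all 9 were still below 0 and smaller, from −0.06 for *Nfkbie* to −0.26 for *Nfkbib*, with exact permutation p-values of 0.0667 to 0.667, where 0.0667 is the smallest possible. The ratio to *Nfkbib* was 2.96, 2.98, 2.89 and 2.87 in WT1 to WT4 and 2.44, 2.75, 2.60 and 2.57 in KO1 to KO4, a difference of −0.34 (SE 0.0689). The ratio to *Tnfaip3* was 2.12, 2.03, 2.07 and 1.95 in WT1 to WT4 and 1.65, 1.86, 1.78 and 1.66 in KO1 to KO4, a difference of −0.31 (SE 0.0634). For these genes every KO library was below every WT library (two-sided exact permutation test, p = 0.0286 each, 0.110 after Benjamini-Hochberg adjustment over the 9 ratios).

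The other 7 ratios overlapped between genotypes. The largest differences among them were to *Nfkb1* (−0.31) and *Nfkb2* (−0.28), each with p = 0.0571 in the two-sided exact permutation test, and both were at −0.13 without KO1 and KO4. The ratios to *Rela* (−0.26), *Relb* (−0.21) and *Nfkbiz* (−0.18) each gave an exact permutation p = 0.0857. The smallest difference was to *Nfkbia* (−0.16, exact permutation p = 0.114), and that to *Nfkbie* was −0.21 (exact permutation p = 0.143), or −0.09 and −0.06 without KO1 and KO4. Without them *Relb* was at −0.12, *Nfkbiz* at −0.15 and *Rela* at −0.17. None of the 9 passed 0.05 after adjustment. With 4 against 4 libraries the smallest possible p is 0.0286, which stays above 0.05 after adjustment unless most of the 9 ratios reach it. The ratios to *Nfkbib* and *Tnfaip3* could therefore not pass by themselves. A distinct behaviour of *Rel* was thus not shown at this number of libraries, nor was a shared one.

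**Figure D3:**
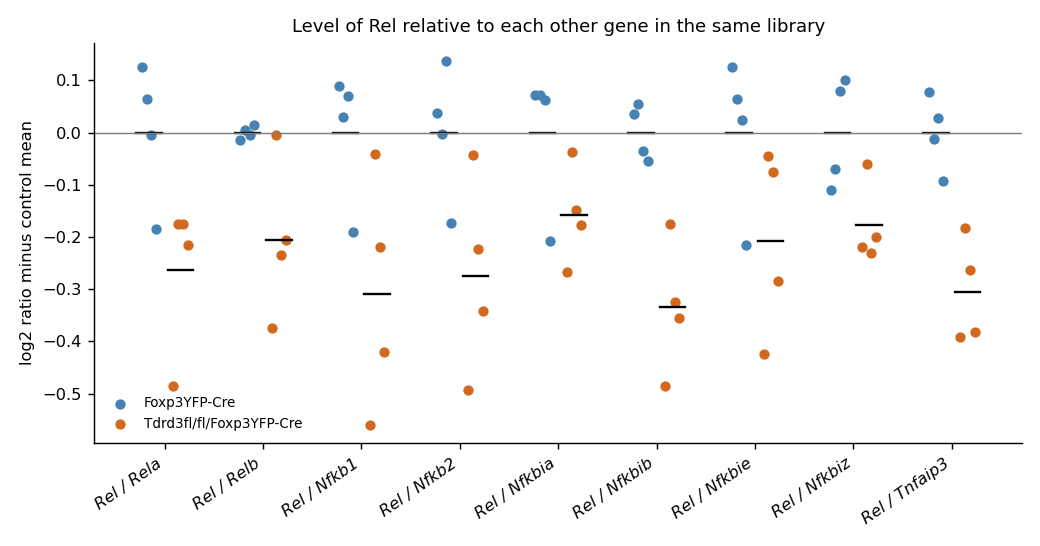
Log2 ratio of the normalized CPM of *Rel* to that of each other gene in the same library, with the mean of the Foxp3YFP-Cre libraries subtracted; points are libraries and bars are means. The Tdrd3fl/fl/Foxp3YFP-Cre means lie between −0.34 and −0.16, and the groups are apart for *Nfkbib* and *Tnfaip3*.

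The rest of the pathway was described with 5 lists of 54 genes, all of them tested, none of which had an adjusted p under 0.05 in edgeR. Of the 54 genes 24 were lower and 30 higher, and at an unadjusted P under 0.05 there were 5 in each direction, beside 4.91% lower and 4.38% higher among all tested genes. Once KO1 and KO4 were left out, 2 were lower (*Traf2* and *Icam1*) and 1 higher (*Bcl2a1d*), beside 2.09% lower and 1.82% higher among all genes tested in that fit, and *Ikbke*, *Tnip1*, *Tnip2*, *Lta*, *Ltb*, *Il2ra*, *Irf4* and *Tnfrsf9* no longer had an unadjusted P under 0.05. DESeq2 on the genes edgeR kept called 1 of the 54 (*Il2ra*, adjusted p = 0.0496) and limma voom called 0, beside the shares of all genes given above for these tools. Their median log2 fold change in edgeR was 0.01. The genotypes were apart for 2 of the 54 in the lower direction and for 3 in the higher, beside 2.63% and 2.25% of all tested genes.

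Among the regulators upstream, the IKK complex and its partners (10 genes, 6 lower and 4 higher, median −0.03) held 1 gene that was lower with an unadjusted P under 0.05, beside 4.91% of all tested genes, a count too small to set the list apart. *Ikbke*, an IKK-related kinase, had 84.6, 85.2, 79.1 and 83.8 CPM in WT1 to WT4 and 69.4, 81.2, 77.1 and 73.1 CPM in KO1 to KO4, with KO2 above WT3 and a log2 fold change of −0.14 (edgeR, adjusted p = 0.396), or −0.07 without KO1 and KO4. The most abundant genes of this list per length, *Map3k7*, which encodes the kinase TAK1, and *Tank*, had log2 fold changes of 0.03 each.

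Upstream at the T cell receptor, *Cd28*, the costimulatory receptor, was at −0.10 and *Malt1*, a protease of this pathway, at 0.12, or 0.04 without KO1 and KO4 (edgeR with all 8 libraries, adjusted p = 0.494 and 0.471), and *Traf6*, an adaptor ubiquitin ligase, was at 0.06. The 5 genes of the alternative arm that frees RelB lay between −0.10 and −0.01 (median −0.07), none with an unadjusted P under 0.05, with *Birc2* at −0.07 and *Traf3*, which holds this arm in check, at −0.02. In the fit that left out KO1 and KO4, *Traf2*, an adaptor of this arm, went from −0.10 to −0.21 (unadjusted P = 0.0126, adjusted p = 1.0) and *Map3k14*, its kinase NIK, from −0.01 to 0.03.

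Another list of 5 genes, of IκB-like proteins and the κB-Ras GTPases that bind IκB, had a median of 0.09, or 0.02 without KO1 and KO4. The most abundant of them per length, *Nfkbid*, which encodes IκBNS, and *Bcl3*, were at 0.00 and 0.09, and none had an unadjusted P under 0.05. *Nkiras1*, which encodes a κB-Ras, singled out after its values were seen because its genotypes did not overlap, had between 7.94 and 9.14 CPM in WT and between 9.22 and 10.4 CPM in KO libraries (log2 fold change 0.20, edgeR, adjusted p = 0.682).

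The ubiquitin editors and the linear ubiquitin complex (11 genes, 3 lower and 8 higher, median 0.04) held *Tnip1* and *Tnip2*, whose products bind A20. *Tnip2* had 21.4, 20.2, 16 and 21.7 CPM in WT1 to WT4 and 23.2, 22.1, 24.2 and 25.1 CPM in KO1 to KO4. Every KO library was above every WT library, with a log2 fold change of 0.26 (SE 0.0964; edgeR, unadjusted P = 0.0159, adjusted p = 0.380). *Tnip1* was at 0.10 (adjusted p = 0.525), with KO2 within the range of the WT libraries, and *Rbck1*, a subunit of the linear ubiquitin ligase, was at −0.02.

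Known targets of NF-κB in T cells (23 genes, 10 lower and 13 higher, median 0.03) were divided. At an unadjusted P under 0.05, 4 were lower and 3 higher, beside 4.91% and 4.38% of all tested genes. With KO1 and KO4 left out, 1 was lower (*Icam1*) and 1 higher (*Bcl2a1d*), beside 2.09% and 1.82%. *Il2ra*, the α chain of the IL-2 receptor and the most abundant gene of the list per length, had 2254, 2179, 2369.6 and 2271 CPM in WT1 to WT4 and 2026, 2169, 2082 and 2025 CPM in KO1 to KO4. All KO libraries were below all WT libraries, with a log2 fold change of −0.13 (SE 0.0360; edgeR, unadjusted P = 0.00209, adjusted p = 0.152). *Icam1*, an adhesion molecule, was likewise apart, with 60.9 to 69.9 CPM in WT and 52.4 to 59.4 CPM in KO libraries (log2 fold change −0.20, adjusted p = 0.194).

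*Tnfrsf9*, which encodes the costimulatory receptor 4-1BB, was at −0.20 (edgeR, adjusted p = 0.335) and *Ltb*, which encodes lymphotoxin β, at −0.12 (adjusted p = 0.494), with overlap between genotypes, and without KO1 and KO4 *Ltb* was at −0.01. In the other direction, *Lta*, which encodes lymphotoxin α, had 316, 313, 323 and 362 CPM in WT1 to WT4 and 460.4, 351, 348 and 419.8 CPM in KO1 to KO4. KO1 and KO4 were the highest libraries, and KO2 and KO3 lay below WT4 (log2 fold change 0.27, adjusted p = 0.138), and without KO1 and KO4 the log2 fold change was 0.09. *Irf4*, a transcription factor of activated T cells, was also highest in KO4 and KO1, at 1109.9 and 1081 CPM, against 926 to 961 CPM in WT libraries (0.11, adjusted p = 0.446, and 0.01 without KO1 and KO4).

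*Bcl2a1d*, a survival gene of the BCL2 family, had 18.1 to 21.7 CPM in WT and 22.8 to 28 CPM in KO libraries, without overlap (0.32, edgeR, adjusted p = 0.164). It has near-identical copies between which the authors' counting divides reads, so its value is uncertain, and the copy *Bcl2a1b* was at −0.01. *Tnfrsf4*, which encodes OX40, was at −0.03. *Il2* had the highest log2 fold change of the list, 0.78, at 0.437 to 1.77 CPM in WT and 1.19 to 2.83 CPM in KO libraries, which overlapped (adjusted p = 0.591, and 0.34 in log2 fold change without KO1 and KO4).

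**Figure D4:**
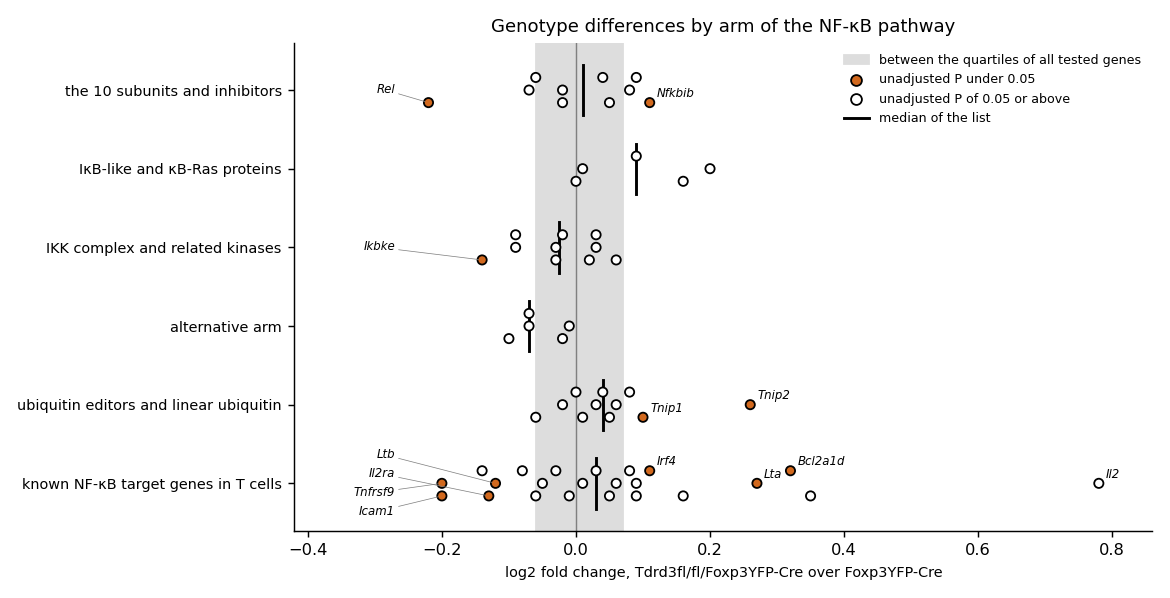
Log2 fold change, Tdrd3fl/fl/Foxp3YFP-Cre over Foxp3YFP-Cre, of each gene of the set and of the 5 pathway lists, with the median of each list as a bar and the range between the quartiles of all tested genes in grey; filled points have an unadjusted P under 0.05 and are named, as is *Il2*. The medians lie between −0.07 and 0.09, and *Rel* has the lowest value of all genes shown.

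*Foxp3* (ENSMUSG00000039521), the gene whose enhancer c-Rel is known to open, was read beside *Rel*. It had 117, 122, 107 and 93.8 CPM in WT1 to WT4 and 77.2, 105, 93.2 and 78.1 CPM in KO1 to KO4. As with *Rel*, KO2 lay above WT4, and KO1 and KO4 were the lowest. In log2 terms *Foxp3* differed by −0.31 (SE 0.0880; edgeR, unadjusted P = 0.00212, adjusted p = 0.152), and without KO1 and KO4 by −0.15 (unadjusted P = 0.111). Of the 6 Treg markers, 3 had an unadjusted P under 0.05, all lower (*Foxp3*, *Il2ra* and *Ikzf2*), beside 4.91% of all tested genes. With KO1 and KO4 left out, *Il2ra* was at −0.09 (unadjusted P = 0.0682) and 1 of the 6 was left under 0.05, *Ikzf2* (−0.20, unadjusted P = 0.00768), beside 2.09%. With all 8 libraries *Ikzf2*, which encodes Helios, was at −0.14 (adjusted p = 0.433), and the other 3 were at −0.06 (*Tnfrsf18*), 0.06 (*Ctla4*) and 0.12 (*Itgae*), with adjusted p-values of 0.824, 0.736 and 0.956. *Itgae* was low, at 0.437 to 2.4 CPM in WT and 1.07 to 3.19 CPM in KO libraries (SE 0.402). Without KO1 and KO4 it was at −0.37, so its direction is uncertain. The exons of *Foxp3* overlap other genes on the opposite strand, so counting without strand could add their reads. They also overlap *Flicr*, a long non-coding RNA on the same strand, whose reads the strand would not separate.

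Over the 8 libraries the log2 levels of *Rel* and *Foxp3* gave a Pearson r of 0.967 (two-sided exact permutation p = 0.000198) and a Spearman rho of 0.976 (exact permutation p = 0.000397). This relation was noticed in the data, so its p-values are a description. Without WT1 and KO1, the libraries farthest from the median of *Rel*, r was 0.961 (exact permutation p = 0.00417) and rho 1.0 (exact permutation p = 0.00278) over 6 libraries. Without KO1 and KO4, r was 0.948 (exact permutation p = 0.00972) and rho 0.943 (exact permutation p = 0.0167). With the mean of each genotype subtracted, so that the difference between genotypes does not enter, r was 0.948 and rho 0.929. Other genes tracked *Rel* as closely: of 8776 genes with a mean of at least 10 CPM, 95 (1.08%) had an r with *Rel* of at least 0.9 over the 8 libraries, and *Foxp3* ranked 6. With genotype means subtracted, 57 (0.649%) had an r of at least 0.9, and *Foxp3* ranked 11.

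**Figure D5:**
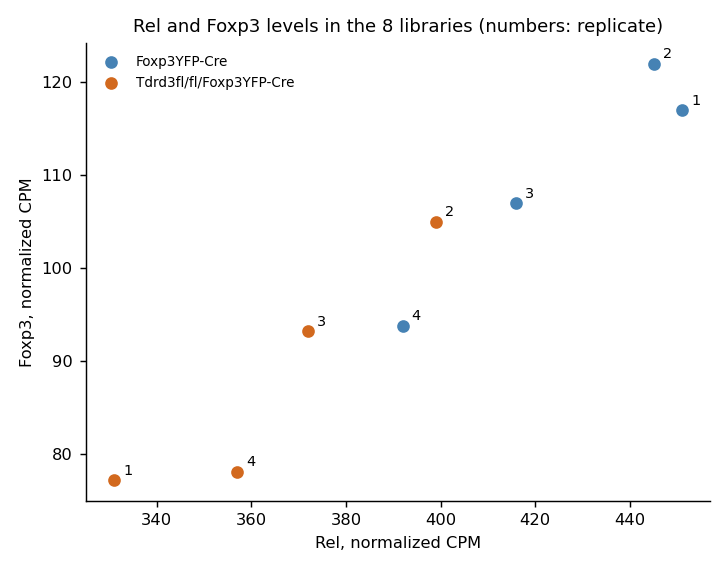
Normalized CPM of *Foxp3* against that of *Rel* in the 8 libraries, with replicate numbers beside the points; neither axis starts at 0. Libraries of both genotypes lie along the same rise, from KO1 at 331 and 77.2 CPM to WT1 at 451 and 117 CPM, with KO2 among the WT libraries (Pearson r 0.967 on log2 levels).

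The other 9 genes of the set tracked *Rel* less closely over libraries. The r with *Rel* was 0.62 for *Nfkbiz*, 0.42 for *Nfkbia* and 0.31 for *Relb*, and it was below 0 for the other 6, down to −0.72 for *Nfkb1*. With genotype means subtracted, several of these changed sign: *Nfkbib* went from −0.59 to 0.32, *Tnfaip3* from −0.32 to 0.49 and *Nfkbia* from 0.42 to −0.07, while *Nfkbiz* (0.78) and *Nfkb1* (−0.67) kept theirs. The genes most like *Rel* over the 8 libraries were *Il12rb2* (r 0.985), *Rnf145* (0.980), *Ahcyl2* (0.972), *Itgb7* (0.970) and *Jakmip1* (0.968), chosen as the 5 with the highest r and given as a description with no p. *Il12rb2*, the signalling chain of the IL-12 receptor, had 27.9, 27.1, 22.4 and 17.3 CPM in WT1 to WT4 and 11.9, 17.8, 16.5 and 13.2 CPM in KO1 to KO4, with KO2 above WT4 as for *Rel*. *Ahcyl2* had 307, 306, 271 and 232 CPM in WT1 to WT4 and 187, 237, 228 and 187 CPM in KO1 to KO4. Without KO1 and KO4 the log2 fold changes of *Il12rb2* and *Ahcyl2* were −0.46 and −0.26, against −0.67 and −0.41 with all 8 libraries. *Itgb7*, an integrin β chain (−0.35), *Jakmip1* (−0.21) and *Rnf145* (−0.12) were lower as well. Those values became −0.24, −0.12 and −0.06 when KO1 and KO4 were left out. With all 8 libraries, *Ahcyl2* is among the 30 genes that edgeR called over the whole table (adjusted p = 0.0399), and the other 4 are not. Since *Rel* was lower in KO libraries, choosing genes by their likeness to it favours such differences, so these values are a description and not a result about genes like *Rel*.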

How the data were processed

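Total RNA depleted of ribosomal RNA was sequenced from 8 libraries, 4 per genotype; the methods state 3 replicates from independent mice, and the labels give 4. The authors aligned reads to GRCm39 with STAR 2.7.8a and deposited estimated counts per gene from the Partek Flow E/M algorithm, which divides reads shared by several genes; the annotation version and the strand setting are not given in the sources used here. Of the deposited values, 43.0% were not whole, and they were rounded. Rounded counts were normalized by TMM and tested for genotype alone with edgeR 4.0.16 (R 4.3.3; quasi-likelihood F-test, two-sided, filterByExpr with a minimum count of 10, Benjamini-Hochberg over all 11317 tested genes, 594 not tested). Single values and ratios were tested by two-sided exact permutation over 70 arrangements on log2(CPM + 0.5), enumerated in Python 3.11.15 with numpy 2.4.6. The adjustment over the ratios was made with scipy 1.17.1. DESeq2 1.42.0, limma 3.58.1 (voom), other filters and scalings, and left-out libraries were alternatives. Transcript lengths and exon overlaps came from GENCODE release M39. Chi-square per degree of freedom between libraries of a genotype was 2.59 to 6.29, so none were duplicates. The members, lists and tests were chosen with earlier results of these data known. Genes were named by rule if they were among the 10, *Tdrd3* or *Foxp3*, or had an unadjusted P under 0.05 in a list. The rule also took the 2 most abundant per kb of each pathway list and the 5 most like *Rel*. Other genes, among them *Nkiras1*, *Traf2*, *Map3k14*, *Il2*, *Bcl2a1b*, *Tnfrsf18*, *Ctla4* and *Itgae*, were named outside this rule. They were not among the genes checked for a library that stood apart. P-values set the difference between genotypes against the spread between these libraries. Whether all 4 libraries of a genotype came from separate mice cannot be settled from the methods and labels. The self-test of the fits ran on simulated counts. Reads are not independent molecules, so floors cover counting error only. Certain listed genes, and 1 list that holds one of them, are not reported here.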

Additional observations from a re-analysis of the deposited data

Results flagged for a closer look

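In 5 of the 82 groups of 4 libraries checked for the genes named by rule, 1 library stood apart. Its gap to its nearest neighbour took more of the group's whole range than Dixon's 95% critical value allows, and chance gives about 1 in 20. *Nfkb2* was lowest in WT3 (0.863 of the range), the library that had the least *Tdrd3* RNA. *Cd8a* was highest in the same library, WT3 (0.952), at 11.3 CPM against at most 1.37 CPM in the others. *Tnip1* was lowest in KO2 (0.854), *Bcl2a1d* was highest in KO1 (0.834) and *Rbck1* was highest in KO3 (0.908). *Rel* had no such library in either genotype.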

How the results depend on the processing

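The difference in *Rel* kept its sign in all 17 alternatives. Its adjusted p passed 0.05 with DESeq2 under its own filtering (−0.23, adjusted p = 0.0173), DESeq2 on the genes edgeR kept, chosen after seeing the data (−0.23, 0.0166), limma voom with quality weights (−0.26, 0.0200), and the replicate block (−0.23, 0.0375); leaving out 1 library gave −0.27 to −0.18. Replicate numbers did not pair the libraries (correlations of deviations −0.08 to 0.07, and 1 of 8 libraries correlated best with its own number). The number of genes with an adjusted p under 0.05 was 30 in the main analysis, 80 and 81 with DESeq2, 95 with voom, 87 with the replicate block, 3 without KO1 and KO4, and 6 to 162 with 1 library left out; at an unadjusted P under 0.05 it was 1052, 450 without KO1 and KO4, and 697 to 1230 with 1 library left out. Of the 10 genes, the number with an adjusted p under 0.05 was 1 with DESeq2 in both forms, voom and the replicate block, and 0 to 1 with 1 library left out; at an unadjusted P it was 1 in those 4 and without KO1 and KO4, and 1 to 2 with 1 library left out. The ratio of *Rel* to *Nfkbib* was −0.26 and that to *Tnfaip3* −0.22 without KO1 and KO4 (exact permutation p = 0.0667, the smallest 2 against 4 allow), and −0.34 and −0.31 with the replicate block, where the smallest p of 4 pairs is 0.125. With 1 library left out these ratios ranged from −0.39 to −0.29 and from −0.35 to −0.28, and those to *Rela* and *Relb* from −0.32 to −0.18 and from −0.27 to −0.15; the exact permutation p was 0.0286 for *Rela* without WT4 and for *Relb* without KO2, and 0.0571 for *Nfkbib* without any single WT library and for *Tnfaip3* without WT1; the cause of the lost and gained calls was not tested. Differences near 0 changed sign: without KO1 and KO4 *Nfkb1* and *Nfkb2* were at −0.01 and *Nfkbiz* at 0.00 in log2 level, and with 1 library left out the ranges were −0.01 to 0.08 for *Nfkb2*, −0.05 to 0.01 for *Nfkbie*, −0.12 to 0.02 for *Nfkbiz*, −0.07 to 0.01 for *Relb* (−0.06 to 0.01 in log2 level) and −0.029 to 0.062 for the log2 library totals. At 4562 to 6585 counts of *Rel* per library, counting alone gives a coefficient of variation of 1.33%, beside 6.38% and 7.76% between the libraries of a genotype.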
